A study of Arabidopsis thaliana with 20 samples.

Results

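The cordycepin courses taken after 24 h and after 36 h at 4 °C make up 8 of the study's 20 arrays. They were chosen by sample title alone, 4 arrays per series at 0, 4, 8 and 12 h of cordycepin. In each gene, log2 intensity was regressed on hours of cordycepin with an intercept for each series and 1 shared slope, so that the 24 h and 36 h series served as the only replication at each time. All arrays are of Arabidopsis T87 cells, a suspension culture of the Columbia accession (ecotype label Col-0), read on Affymetrix ATH1 arrays from total RNA. The cold cells stood in dimmer light than the 22 °C cells (40 against 80 µmol per square metre and second), longer cold also meant a longer time in culture, and every point is 1 array. No label says that the series came from separate cultures, so p-values measure only the scatter of single arrays about the fitted lines. The other 12 arrays are a 22 °C series at 0, 0.5, 2 and 4 h of cordycepin and cold series after 6 h and 12 h with the same 4 times as the late ones. The 6 h series is known from sample titles only, since the growth protocol names cold of 12, 24 and 36 h. Of the markers of differentiated plant cells, 2 could be named on the array and 0 passed the filter on low values.

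Cordycepin lacks a hydroxyl group that RNA polymerase needs to add the next base, so it stops transcription, and after its addition a transcript is no longer replaced and its level follows its decay. Decay in plants starts mostly with shortening of the poly(A) tail, after which the message is decapped or eaten from its end by the exosome. Messages for transcription factors, protein ligases and other fast regulators are textbook examples of short-lived transcripts, while messages for housekeeping enzymes tend to be long-lived. Array values normalised between arrays are relative: "fell" and "rose" below mean that a transcript's share moved down or up against the other transcripts on the same arrays, past the test, and a positive slope does not mean that new RNA was made. In bulk RNA, fewer cells with a transcript and less of it per cell cannot be told apart.

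Of 6962 genes tested, 1121 fell (16.1%) and 1110 rose (15.9%) over 12 h of cordycepin in long cold (limma, Benjamini-Hochberg adjusted p under 0.05), and an unadjusted p under 0.05 gave 1421 and 1721. The split hangs on the zero point: with each array centred on reference genes it was 1628 falling and 309 rising, and when each series was shifted until its slope at the 95th percentile was 0 (anchored slopes) 5194 and 41. The median slope of all genes went from 0.0048 log2 per h to −0.0067 and −0.0325 under these. The falling side held the larger changes. Among the fallers the median slope was −0.050 log2 per h, a 1.52-fold fall over 12 h, and 218 genes (3.13%) fell at least 2-fold. Among the risers it was 0.028, a 1.26-fold rise, and 28 genes (0.402%) rose at least 2-fold, a size limit added after seeing the data. With 1 of the 8 arrays left out, 3 arrays moved a count by over 1.5 times: 642 fell and 384 rose without the 24 h series' 12 h array, 782 and 441 without its 0 h array, and 761 and 430 without the 36 h series' 12 h array. Without the 36 h series' 0 h array they were 1082 and 1046. Both 12 h arrays lay below both 0 h arrays in 1039 of the 1121 fallers and in 1622 of all genes, and both lay above in 1071 of the 1110 risers and in 2388 of all genes, a count that the call itself largely fixes. Fallers were dimmer, with a median level over the 8 arrays of log2 7.08, against 8.38 in risers and 7.51 in all genes.

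**Figure D1:**
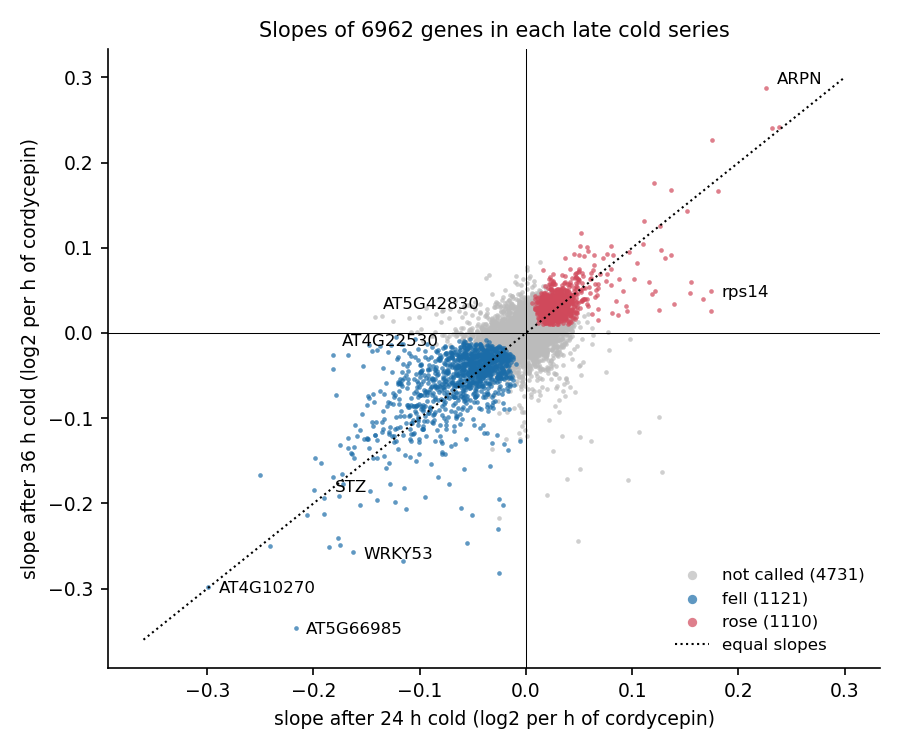
Slope on hours of cordycepin in the 24 h cold series (x axis) and in the 36 h cold series (y axis), in log2 per h, with 1 point per gene and colours for the shared-slope call. Fallers lie in the lower left and risers in the upper right, and the fallers reach further from 0, with AT4G10270 and AT5G66985 at the end.

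The steepest fall was that of AT4G10270, on chromosome 4 (6374734 to 6375210 in TAIR10.1, the build of all positions here). Its log2 intensity was 10.63, 8.79, 7.47 and 7.08 at 0, 4, 8 and 12 h of cordycepin after 24 h of cold, and 9.91, 7.78, 7.26 and 6.11 after 36 h. Each step was downward in both series, and the 2 arrays at 4 h already lay below the 2 at 0 h. The shared slope was −0.298 ± 0.026 log2 per h (SE, 8 arrays; limma adjusted p = 0.000174), a 12.0-fold fall over 12 h. AT5G66985, on chromosome 5 (26743279 to 26744019), went from 8.56 through 7.14 and 6.52 to 5.88 after 24 h of cold and from 9.04 through 7.16 and 6.24 to 4.74 after 36 h. It also fell at every step, by 10.4-fold over 12 h (−0.281 ± 0.026; limma adjusted p = 0.000193). AT5G20790, on chromosome 5 (7039674 to 7040919), was the brightest of the 15 steepest fallers, with 12.24, 11.53, 10.47 and 9.85 after 24 h and 11.64, 11.36, 10.10 and 9.21 after 36 h. Its points lay close to a line in both series, and it fell 5.73-fold (−0.210 ± 0.013; limma adjusted p = 4.47e-05). AT1G69760 went from 6.54 to 3.77 and from 6.15 to 3.41, the last values being under the table median of log2 5.94, where intensity follows a transcript less closely.

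The rest of the 15 steepest fallers were AT3G19680, AT5G63130, WRKY53, AT1G24530, AT1G68500, AT2G41410, AT4G32020, AT4G02170, STZ, AT3G23170 and AT3G45210, with slopes from −0.218 to −0.179. Only WRKY53 and STZ of the 15 carry a symbol in the platform table, and the loci are given here without a role. In all 15, both 12 h arrays were below both 0 h arrays, and in 5 both 12 h arrays were below the table median. None of the 15 had both 0 h arrays below it. A gene with a role in its annotated synonyms, AT3G10040 (HRA1, hypoxia response attenuator), had a slope of −0.124 ± 0.025 (limma adjusted p = 0.0058).

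The gene lists below are of 2 kinds. Some were fixed as text patterns on gene descriptions, and some were added by symbol after results of these data had been seen. Both kinds were chosen with earlier results of these data known, so neither supports anything on its own. The first lists that the added ones replaced are given beside them or at the end of the list results. Each count stands against 16.1% of all genes falling and 15.9% rising, and with anchored slopes against 5194 of 6962 falling.

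For transcription factors the 2 kinds of list gave different pictures. The first list had 9 falling and 6 rising of 50 (12 and 3 with reference-gene centring, 40 and 0 with anchored slopes), with a median slope of 0.0055 against 0.0048 over all genes, which is near the background. Its text pattern also took in genes of other kinds. The list added by symbol had 18 falling and 4 rising of 43 (21 and 1, then 36 and 0), with a median of −0.013. WRKY53, a WRKY factor of leaf senescence, stood at 7.60, 6.47, 5.98 and 5.60 after 24 h of cold and at 8.93, 9.02, 6.64 and 6.29 after 36 h. It began higher in the 36 h series and did not go down there until after 4 h, and it fell 5.73-fold (−0.210 ± 0.032; limma adjusted p = 0.00166). STZ, a zinc finger repressor of stress genes, had 10.67, 9.59, 9.16 and 8.28 after 24 h and 10.82, 10.81, 9.24 and 8.76 after 36 h, again level over the first 4 h of the later series only. Its fall was 4.93-fold (−0.192 ± 0.018; limma adjusted p = 0.000203). BZIP53, a bZIP factor of seed maturation and of amino acid metabolism in starved cells, had 10.32, 9.72, 8.99 and 8.77, then 9.85, 9.96, 8.77 and 8.74, and fell 2.80-fold. The other factors that fell were HAT2 (−0.123), a homeodomain protein of auxin responses, BZIP60 (−0.117), WRKY22 (−0.105), WRKY6 (−0.098), the jasmonate factors MYC4 (−0.096) and MYC3 (−0.036), IAA29 (−0.078), a repressor of auxin responses, TCP15, PYE, AGL30, HAT3.1, SCL21, bZIP44, BIM1 and HYH. Those that rose were EEL (0.069), AGL72, bHLH104 and ILR3. In the list by symbol, without the 36 h series' 12 h array 11 factors fell, without the 24 h series' 0 h array 12, and 0 rose without the 24 h series' 0 h or 12 h array. Genes in this paragraph other than WRKY53, STZ and BZIP53 were named after their values were seen, as the called members of the list.

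**Figure D2:**
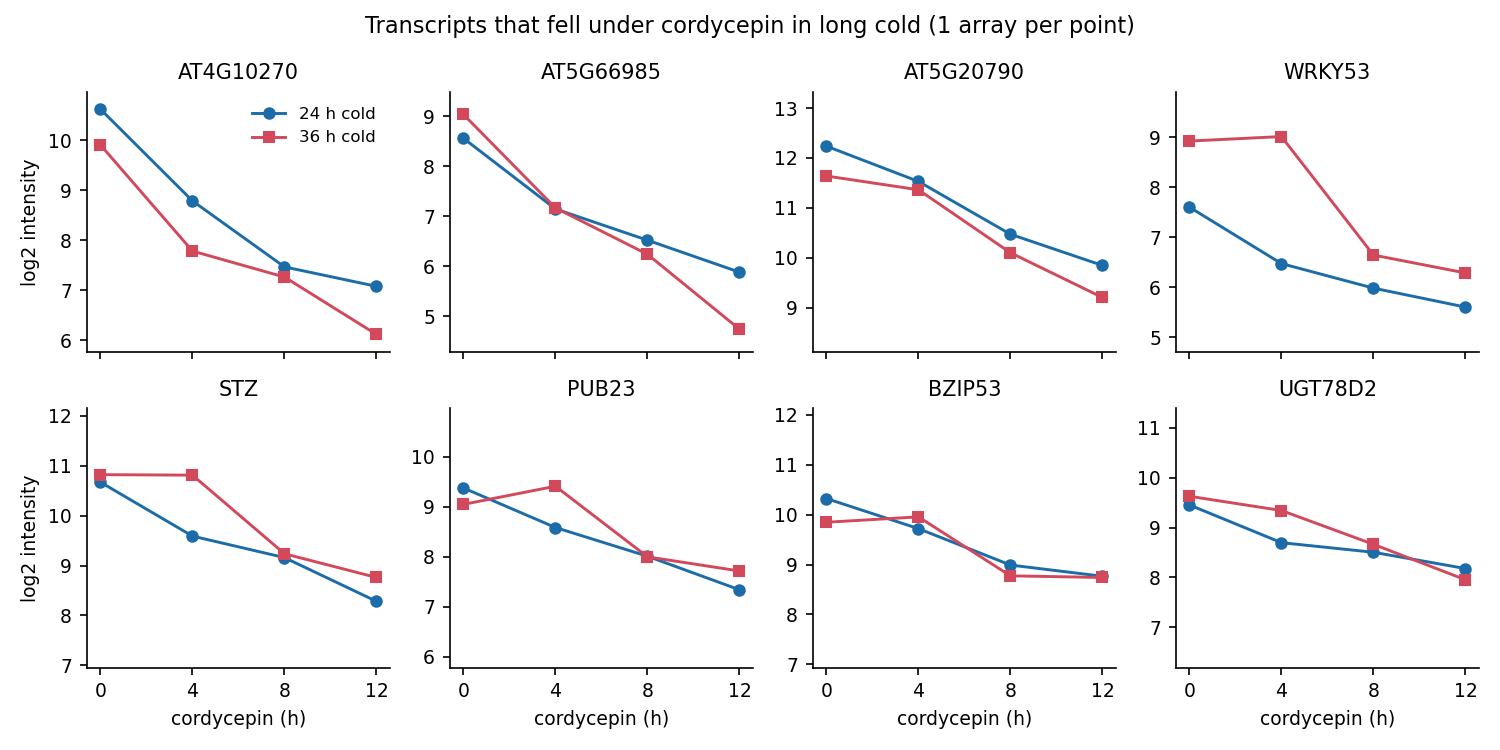
Log2 intensity (y axis) against hours of cordycepin (x axis) for 8 transcripts that fell, in the 24 h cold series (circles) and the 36 h cold series (squares), 1 array per point, with an equal span of y in every panel. AT4G10270 drops from the first interval on in both series, while WRKY53 and STZ are level from 0 to 4 h in the 36 h series and drop after it.

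Ubiquitin enzymes, which tag proteins for breakdown or remove the tag, had members on both sides. In an added list of 28, 7 fell and 4 rose (12 and 2 with reference-gene centring, 22 and 0 with anchored slopes), with a median slope of −0.009; the rising share, and the falling share with anchored slopes, were near those of all genes. The first list, of F-box, RING and U-box proteins, had 4 falling and 0 rising of 6 and a median of −0.063. Without the 24 h series' 0 h or 12 h array 2 of the 28 rose. The U-box ligase PUB23, which curbs drought and immune responses, went from 9.38 through 8.59 and 8.01 to 7.34 after 24 h and from 9.05 through 9.41 and 8.00 to 7.72 after 36 h. Both 12 h values were below both 0 h values, and the fall was 3.52-fold (−0.151 ± 0.020; limma adjusted p = 0.00076). Its near relative PUB22 had a slope of −0.118, PUB19 −0.080 and PUB43 −0.046, and the deubiquitinases UBP22, UBP15 and UBP24 fell as well. UBC28, UBC18 and UBC30, which are conjugating enzymes, and UBP25 rose, with slopes of 0.0165 to 0.063, and UBC28 turned to −0.021 with anchored slopes. PUB43, the UBP genes and UBC18 and UBC30 were named after their values were seen.

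UDP-glycosyltransferases put sugars on flavonoids, hormones and other small molecules. Their first list had 6 falling and 1 rising of 14 (7 and 1 with reference-gene centring, 13 and 0 with anchored slopes), with a median slope of −0.020, and the one that rose was SGT (0.044). An added list by symbol, without SGT, had 7 falling and 0 rising of 16 (9 and 0, then 16 and 0), with a median of −0.030. UGT78D2, the flavonoid 3-O-glucosyltransferase, had 9.45, 8.70, 8.50 and 8.18 after 24 h and 9.63, 9.34, 8.66 and 7.95 after 36 h. It went down at each step in both series and fell 2.74-fold (−0.121 ± 0.012; limma adjusted p = 0.000284). UGT76B1 (−0.076) was read between 6.59 and 5.09 after 24 h of cold and between 4.76 and 4.58, near the low end of the scale, after 36 h. UGT87A2, the brightest of the family, and UGT85A2 had −0.059 each, and UGT71C4, UGT88A1 and UGT71B1, named after their values were seen, lay between −0.045 and −0.031.

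Cell wall enzymes, wall peptides and calcium sensors also had falling members. Of 35 cell wall remodelling genes in an added list 7 fell and 3 rose (10 and 1 with reference-gene centring, 27 and 0 with anchored slopes), median −0.010, and the falling share was near that of all genes. The first list of cell wall enzymes had 5 falling and 2 rising of 22, median −0.011. Without the 24 h series' 0 h or 12 h array, or the 36 h series' 12 h array, 4 of the 35 fell and 1 rose. EXGT-A3, a xyloglucan endotransglucosylase and the brightest of them, had 12.52, 12.37, 11.78 and 11.65, then 11.59, 11.82, 11.15 and 10.92. It fell 1.85-fold (−0.074 ± 0.012; limma adjusted p = 0.00189). The pectin enzyme GAUT15 had −0.089 and the expansin-like EXLA2 −0.076, while XTH20, a relative of EXGT-A3 named after its value was seen, rose with 0.054. Of 6 RALF genes, which encode peptides that alkalinise the apoplast, RALFL33 (−0.081) and RALFL22 (−0.045) fell and 0 rose, and with anchored slopes all 6 fell. The calmodulin-like calcium sensors CML38 (−0.117) and CML37 (−0.073) fell out of 3 tested, CML37 being under the table median on all 4 arrays of the 24 h series.

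In an added list of 9 histone and HMG protein genes, 4 fell and 0 rose (4 falling with reference-gene centring, 9 with anchored slopes). Core histone transcripts are made in step with DNA replication. All 4 that fell were H2B genes, and the first list, of core histones, had 1 falling of 2. HTB2 had 11.18, 10.87, 10.97 and 10.14 after 24 h and 11.48, 11.36, 10.70 and 10.70 after 36 h. It fell 1.87-fold (−0.075 ± 0.013; limma adjusted p = 0.00281), HTB1 1.84-fold, and HTB11 and HTB4 had slopes of −0.063 and −0.036. The median of the 9 was −0.030, and it was −0.0051 without the 36 h series' 0 h array. Among 25 cell division and DNA replication genes of an added list, 1 fell (ATMAP65-6, −0.026) and 1 rose (CKS, 0.028), and 18 of the 25 had a called higher slope in long cold than at 22 °C, against 34.3% of all genes.

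Cold-regulated genes moved both ways. Of 13 tested cold-regulated, LEA and dehydrin genes, 4 fell and 3 rose (5 and 0 with reference-gene centring, 11 and 0 with anchored slopes), with a median slope of 0.0023. With 1 array left out 2 to 4 fell and 0 to 5 rose, 0 rising and 2 falling without the 24 h series' 0 h array, 0 and 3 without its 12 h array, 1 and 3 without the 36 h series' 12 h array, 5 and 4 without the 24 h series' 8 h array, and 2 and 4 without either 4 h array or the 36 h series' 8 h array. Slopes in the list reached 0.026 on the rising side and −0.084 on the falling side. Against 22 °C, 9 of the 13 had a called lower slope in long cold (19.6% of all genes) and 1 a called higher one (34.3%). LTI30, a dehydrin and the brightest at log2 14.1, had a slope of −0.007 that did not pass. COR47, a dehydrin, and COR15B, a chloroplast cryoprotective protein, fell with −0.020 each, and SRC2 with −0.046; COR47 and COR15B were named after their values were seen. AT4G33980, on chromosome 4 (16282281 to 16285229), which the lists of cold genes and of clock and light genes both hold, stood apart. It went from 9.75 through 9.24 and 8.57 to 8.44 after 24 h and from 8.76 through 8.87 and 8.31 to 8.25 after 36 h, a 2.00-fold fall (−0.084 ± 0.015; limma adjusted p = 0.00312). In the clock and light list of 4, HYH, a bZIP factor of light responses, also fell (−0.025), and GI and COR27 did not pass.

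In an added list of chaperone genes most called members rose. Of 24, 7 rose and 1 fell (5 and 2 with reference-gene centring, 0 and 13 with anchored slopes), median 0.010. The one that fell was BZIP60, the factor that switches on chaperones of the endoplasmic reticulum when proteins misfold, with 10.66, 10.12, 9.28 and 8.93 after 24 h and 9.84, 10.12, 9.38 and 8.97 after 36 h (−0.117 ± 0.017; limma adjusted p = 0.00129). Those that rose included ATERDJ2B, DER2.2 and Hop2, with 0.043, 0.041 and 0.023, and Hop2 turned to −0.014 with anchored slopes. The mRNA decay machinery itself was mixed, with 4 rising and 3 falling of 13 (2 and 3 with reference-gene centring, 0 and 8 with anchored slopes). AT3G58560 and AT2G39260 rose with 0.032 and 0.034, UPF3, of nonsense-mediated decay, fell with −0.031, and RRP41, of the exosome, fell with −0.029. LSM1A, its brightest member, did not pass.

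**Figure D3:**
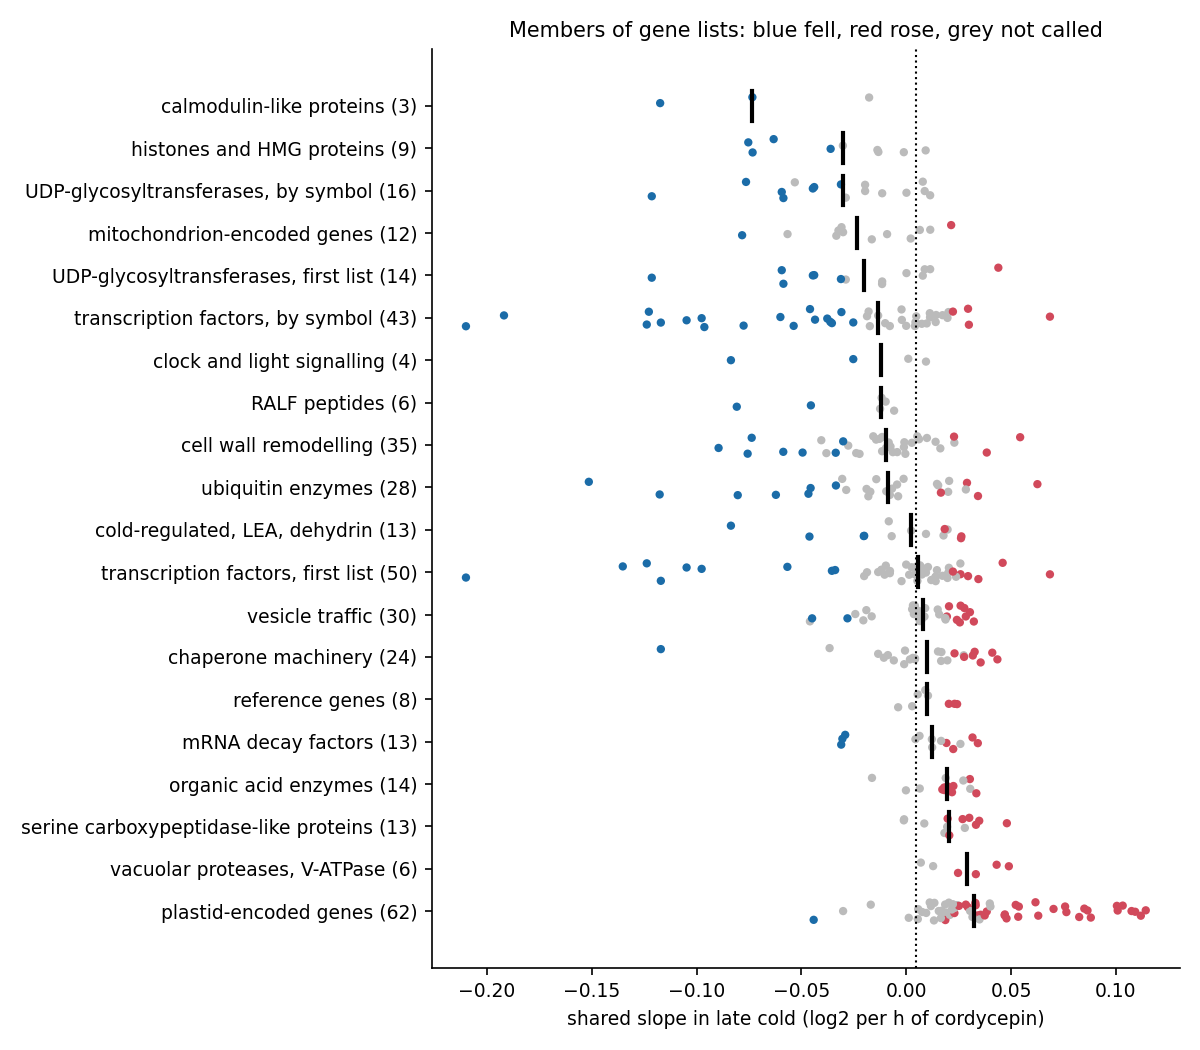
Shared slope in late cold (x axis, log2 per h of cordycepin) of the members of 20 gene lists, with the number tested in brackets, a black bar at each list's median and a dotted line at the median of all genes. UDP-glycosyltransferases by symbol lie mostly left of 0 (16 of 16 fell with anchored slopes), the first and the added list of transcription factors have medians on opposite sides of 0, and plastid-encoded genes mostly right of it (33 rose, but 8 rose and 13 fell with anchored slopes).

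The most positive slope was that of ARPN, a plantacyanin or blue copper protein of the cell wall, on chromosome 2 (826299 to 827994). It went from 5.45 through 5.89 and 7.35 to 7.98 after 24 h and from 5.07 through 5.35 and 7.65 to 8.13 after 36 h. All 4 values at 0 and 4 h were below the table median and all 4 at 8 and 12 h above it, a rise of 8.45-fold (0.257 ± 0.027; limma adjusted p = 0.000321). AT5G45180 had 4.15, 4.17, 5.74 and 6.80, then 4.37, 4.38, 6.49 and 6.89, flat until 4 h in both series, and rose 7.35-fold. AT2G03540, annotated as a pseudogene (chromosome 2, 1073759 to 1074515), had 6.06, 6.54, 7.64 and 8.78, then 6.43, 6.95, 8.48 and 9.12, and rose at each step, 7.12-fold in all (0.236 ± 0.015; limma adjusted p = 5.58e-05). The other risers among the 15 steepest were AT2G03390 (0.201), AT4G02090, AT5G01015, AT4G02850, AT2G03460, AT4G11710, AT2G03130, AT1G10400 and 4 plastid genes given below.

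These risers began dim. In 12 of the 15, and in 21 of the 28 that rose at least 2-fold, both 0 h arrays were below the table median, against 547 of all 6962 genes. The part of the low end of the scale in these rises was not tested. With anchored slopes all 15 still had positive slopes past the test, an outcome that picking the largest slopes largely fixes. Anchoring lowers a slope by only 0.036 log2 per h (24 h cold) or 0.039 (36 h cold). Of the 15, 5 lie between 826299 and 1074515 on chromosome 2, namely ARPN, AT2G03130, AT2G03390, AT2G03460 and AT2G03540. The ends of that stretch were set by these risers, so its counts include all 5. Of its 20 tested genes, 8 rose and 7 fell (15.9% and 16.1% of all genes), with a median slope of 0.0055. Besides the 5, SPP, AT2G03260 and AT2G03470 rose with slopes of 0.020 to 0.034, and the 7 that fell are all neighbours. GSTU28, a glutathione transferase, was the steepest nuclear riser from the lists, with 5.32, 5.82, 6.13 and 6.51, then 5.30, 5.53, 6.21 and 6.34. It rose at every step in both series, by 2.22-fold (0.096 ± 0.010; limma adjusted p = 0.000321), and was 1 of 4 tested glutathione transferases, of which the other 3 were not called.

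**Figure D4:**
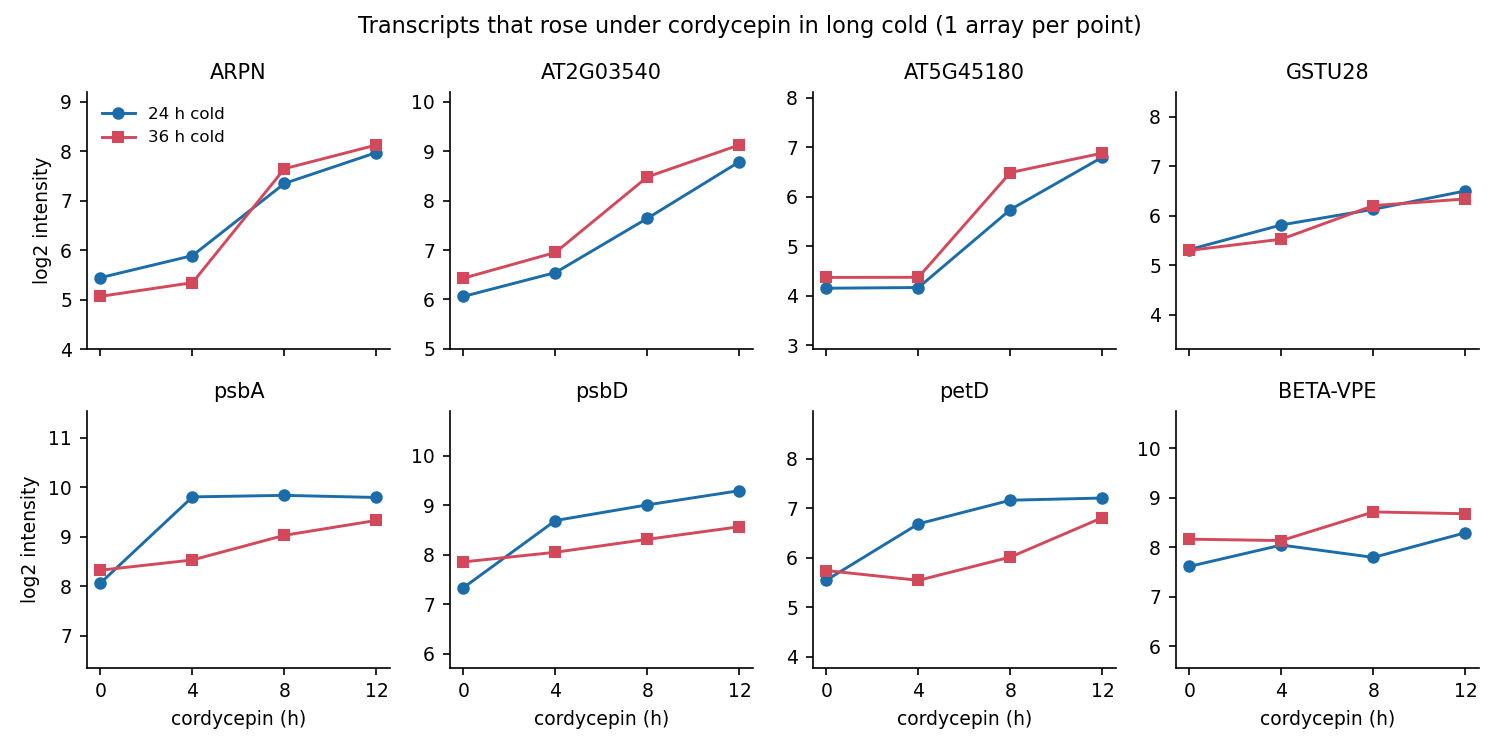
Log2 intensity (y axis) against hours of cordycepin (x axis) for 8 transcripts that rose, in the 24 h cold series (circles) and the 36 h cold series (squares), 1 array per point, with an equal span of y in every panel. ARPN and AT5G45180 go up after 4 h in both series, while psbA, psbD and petD go up mostly by 4 h in the 24 h series.

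Plastid-encoded transcripts, the products of the chloroplast's own genome, were the list with the most rising members by count, and also the largest list. The rising share was at least as large in some smaller lists below, such as organic acid enzymes (8 of 14). Of 62 tested, 33 rose and 1 fell, with a median slope of 0.032 and 55 positive in both series, but the direction hangs on the zero point: 20 rose and 3 fell with reference-gene centring, and 8 rose and 13 fell with anchored slopes. Photosynthesis and NDH genes had 23 rising and 1 falling of 38 (15 and 2, then 6 and 8), and the ribosomal, polymerase and other genes 10 and 0 of 24 (5 and 1, then 2 and 5). psbA, which encodes the D1 protein of photosystem II, had 8.06, 9.80, 9.83 and 9.79 after 24 h and 8.32, 8.53, 9.03 and 9.33 after 36 h. Nearly all of its change in the 24 h series came in the first 4 h, whereas in the 36 h series it was spread over the 12 h, and the shared slope gives a 2.48-fold rise (0.109 ± 0.026; limma adjusted p = 0.0114). psbD, for the D2 protein, had 7.33, 8.69, 9.0 and 9.29, then 7.85, 8.05, 8.31 and 8.56, a 2.44-fold rise. petD, a subunit of the cytochrome b6f complex, rose 2.59-fold, from 5.55 to 7.21 and from 5.74 to 6.81, and rps14, of the small ribosomal subunit, 2.54-fold, from 5.56 to 7.95 and from 5.40 to 5.98.

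The 2 series differed in size within this list. The slope was higher after 24 h than after 36 h in 56 of the 62, against 3450 of all 6962 genes. The change over the first 4 h was higher in 52, against 4228 of all genes, with a median of 0.33 against 0.037. No plastid gene passed the test of the difference between series. Without the 24 h series' 0 h array 14 of 62 rose, and without its 12 h array 14 rose and 2 fell. Without the 36 h series' 12 h array 20 rose, and without its 8 h array 42. Plastid genes that rose had a median level of log2 8.07, and the 28 not called one of 10.3. The brightest, atpE, had a slope of 0.006 that did not pass. ndhC was the one that fell (−0.044). Of 12 mitochondrion-encoded genes, ccb452 fell (−0.078) and ccb382 rose (0.021, turning to −0.016 with anchored slopes), and 10 did not pass. In these 12 the slope was negative in 2 genes after 24 h and in 11 after 36 h, and the list's median of −0.023 became 0.0058 without the 36 h series' 0 h array.

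Members of several metabolic and vacuolar lists rose by small amounts, and each list's median turned negative with anchored slopes. Of 14 organic acid enzymes, 8 rose and 0 fell (1 and 1 with reference-gene centring, 0 and 8 with anchored slopes), median 0.019. They were led by the subunits of ATP citrate lyase, which makes cytosolic acetyl-CoA: ACLA-2 went from 7.08 through 7.18 and 7.45 to 7.47 and from 7.02 through 7.05 and 7.17 to 7.38, and ACLA-2 and ACLB-1 had slopes of 0.033 and 0.030. Of 13 serine carboxypeptidase-like genes 7 rose and 0 fell (3 and 0, then 0 and 4), led by scpl35 (0.048). Among 6 vacuolar processing enzymes and V-ATPase subunits 4 rose and 0 fell (2 and 0, then 0 and 2): BETA-VPE, ALPHA-VPE and GAMMA-VPE, which are proteases of the vacuole, with 0.049, 0.043 and 0.025, and VHA-A3 of the proton pump with 0.033. In the vesicle traffic list of 30, 9 rose and 2 fell (2 and 6, then 0 and 23), VPS60.2 and YKT61 rising with 0.032 and 0.030. These lists were added, and their counts moved with single arrays. Without the 24 h series' 12 h array 1 organic acid enzyme, 4 carboxypeptidase-like, 1 vacuolar and 4 vesicle genes rose. Without the 36 h series' 12 h array the counts were 2, 2, 3 and 2, and without the 24 h series' 0 h array 3, 4, 2 and 4. Without the 36 h series' 0 h array they were 5, 6, 3 and 8, and without its 8 h array 9, 6, 4 and 6.

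Smaller counts came from the remaining lists. The reference genes had 3 rising and 0 falling of 8 (0 and 0 with reference-gene centring, 0 and 6 with anchored slopes), with AT4G34270 at 0.023 and GAPC2, the brightest, at 0.003 and not passing. Centring sets the mean slope of these same 8 genes to 0, so its 0 and 0 is largely built in. RNA polymerase subunits had 2 rising of 12, NRPB6A and NRPA2 with 0.018 each, both turning sign with anchored slopes (10 falling). IQ-domain proteins had 3 rising and 2 falling of 7 (iqd15 0.056, IQD24 −0.054), and genes described as peroxidases, thioredoxins or ascorbate and superoxide dismutase enzymes 2 and 1 of 15. In that list CCS, the copper chaperone of superoxide dismutase, fell with −0.082, from 6.73 to 5.58 and from 8.42 to 7.68. Tubulins had 2 rising of 7, autophagy genes 1 of 9 (APG8A, 0.033), nuclear photosynthesis genes 2 of 22, LSM and exosome genes 2 falling of 9, and pentatricopeptide repeat genes 1 each way of 3. Glycolysis, tetrapyrrole synthesis and tetraspanins had 0 called of 4, 8 and 6 by limma. Of the first lists not yet given, the transport list had 1 rising and 1 falling of 6, tubulin and actin 2 and 1 of 10, nuclear respiratory genes 1 and 0 of 6, nuclear photosynthesis genes 1 and 0 of 6, large chaperones and heat shock factors 1 and 0 of 3, cell division 0 and 0 of 7 and calcium sensors 0 and 2 of 4. Among first lists of 1 or 2 tested genes, both fast stress regulators (WRKY53 and STZ) and 1 of 2 auxin genes fell, the 1 lipid gene rose, and the 1 translation factor and the 1 ribosome biogenesis gene were not called. Each of the lists in this paragraph had 0 rising with anchored slopes.

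The timing of change was described interval by interval, with single steps of 4 h tested over both series. From 0 to 4 h only AT4G10270 was called by limma, falling by 1.98 ± 0.18 on the log2 scale (adjusted p = 0.0339; 0.0144% of genes), and 0 genes rose, where an unadjusted p under 0.05 gave 93 and 53. From 4 to 8 h 25 genes fell (0.359%) and 6 rose (0.0862%). The largest falls in that step were in AT1G69760 (−1.55), AT4G32020 (−1.38), AT2G41410 (−1.25), AT5G65860 (−1.22) and AT1G20100 (−1.19), and the largest rises in ARPN (1.88), AT5G45180 (1.85), AT2G03390 (1.42), AT4G02090 (1.35) and AT2G03540 (1.31). From 8 to 12 h 0 genes were called by limma (0% each way), with 246 lower and 137 higher at an unadjusted p under 0.05. AT4G10270 lost that call with any 1 of 6 of the 8 arrays left out and kept it without either 8 h array. The 4 to 8 h counts, falling and rising, were 0 and 0 without the 36 h series' 4 h array or with no replicate block, and 0 and 2 without the 24 h series' 8 h array. They were 4 and 4 without the 36 h series' 8 h array and 5 and 3 without either 12 h array. Without a 0 h array they were 39 and 6 (24 h series) and 53 and 6 (36 h series), and without the 24 h series' 4 h array 48 and 7.

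In the first interval the fallers' median change was smaller after 36 h than after 24 h. The 1121 fallers had a median change of −0.16 from 0 to 4 h, −0.29 from 4 to 8 h and −0.19 from 8 to 12 h after 24 h of cold. After 36 h the medians were −0.034, −0.34 and −0.15. At 4 h, 929 of the fallers were lower than at 0 h after 24 h of cold and 647 after 36 h, while of all 6962 genes 2631 and 3781 were lower, with medians of 0.044 and −0.015. The shift over all genes thus ran the other way. Among the risers the first step was 0.14 after 24 h and 0.039 after 36 h, and the second 0.073 and 0.22. No test was made of a single step between series, where each side is 1 array against 1. A displaced 4 h array in the 36 h series and a later start of the change cannot be told apart.

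As to straight-line slopes, the 36 h and 24 h series could be compared in 1 test. The slopes had a rank correlation of 0.662 across the 6962 genes, which are not independent and share their arrays. By limma 2 genes had a higher slope after 36 h (0.0287%) and 0 a lower one (0%), with 320 and 186 at an unadjusted p under 0.05. AT5G42830, on chromosome 5, went from 7.56 through 6.86 and 6.38 to 5.83 after 24 h and stayed at 6.51, 6.70, 6.87 and 6.71 after 36 h, a slope difference of 0.161 ± 0.018 (limma adjusted p = 0.0373). AT4G22530 went from 8.57 through 8.08 and 7.10 to 6.48 after 24 h and had 6.87, 6.90, 6.57 and 6.64 after 36 h, a difference of 0.156 ± 0.019 (limma adjusted p = 0.0396). In both, the 36 h series began near where the 24 h series ended. The count of higher slopes was 16 without the 36 h series' 4 h array, 4 without the 24 h series' 8 h array and 0 without either 12 h array, either 0 h array or the 36 h series' 8 h array.

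Long cold was set against the 22 °C series, in which transcripts moved over 4 h rather than 12 h. Cold, dimmer light, time in culture and the span of sampling cannot be told apart here. The late slope was less negative (or more positive) than the 22 °C slope in 2386 genes (34.3%) and more negative in 1365 (19.6%) by limma. With anchored slopes these counts were 5509 and 72. Anchoring takes 0.276 log2 per h off every 22 °C slope and only 0.036 or 0.039 off the late ones, which largely fixes those 2 counts. With reference-gene centring they were 1982 and 1716, with hours rescaled to equal slope spread 661 and 252, and with no filter on low values 2491 and 2939, so that the balance turned. Of the late cold fallers, 414 were less negative than at 22 °C (36.9%, against 34.3% of all genes), which is near the background. A further 91 had a lower slope than at 22 °C (8.12%, against 19.6%), and all 91 had a positive slope at 22 °C. AT5G16250, on chromosome 5 (5310052 to 5310951), showed the largest gap: log2 11.65, 10.68, 8.03 and 6.71 at 0, 0.5, 2 and 4 h at 22 °C, against 11.46, 11.20, 10.87 and 10.28 over 12 h after 24 h of cold and 11.28, 11.10, 10.43 and 10.04 after 36 h. It fell in both settings, with a slope difference of 1.13 ± 0.10 (limma adjusted p = 1.34e-05). AT3G42725, AT2G42110, AT3G02640, AT3G53650, AT4G02800, AT2G04460 and AT2G43140 followed with differences from 1.05 to 0.93, and all 7 also fell in long cold.

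**Figure D5:**
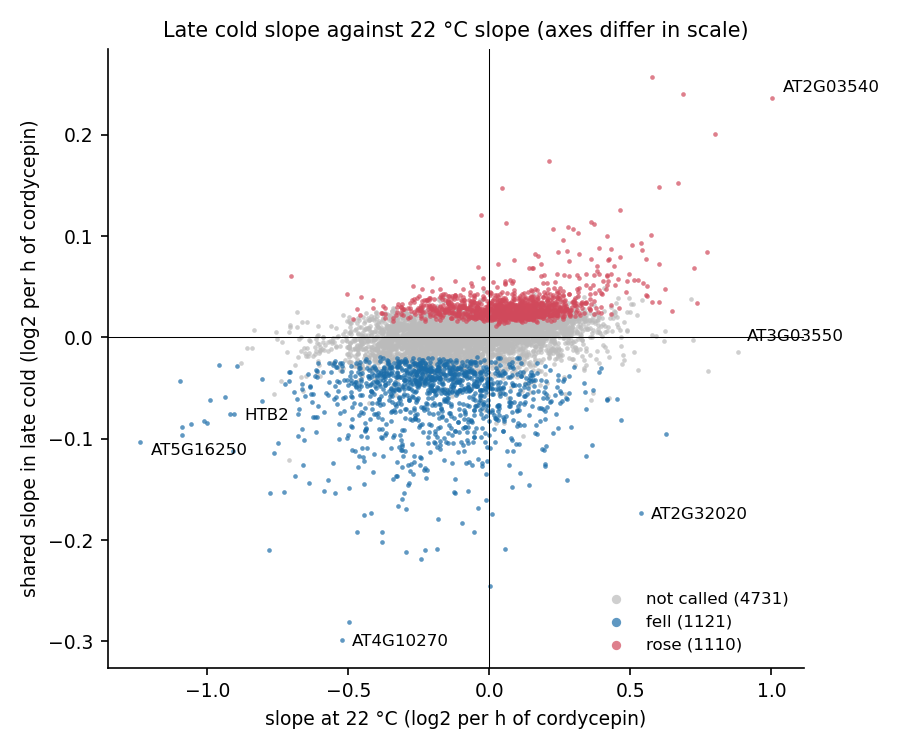
Shared slope in late cold (y axis) against the slope at 22 °C (x axis), both in log2 per h of cordycepin on axes of different scale, with 1 point per gene and colours for the late cold call. AT5G16250 and HTB2 fell steeply at 22 °C and less in long cold, and AT2G32020 lies at a positive slope at 22 °C and a negative one in long cold.

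A smaller set went against its 22 °C course. Of the fallers in long cold, 204 had a positive slope at 22 °C (18.2%, against 40.8% of all genes), and in 91 of these the difference was called. AT2G32020, on chromosome 2, had 5.12, 4.62, 6.41 and 6.87 over 4 h at 22 °C. In long cold it went from 9.64 through 8.88 and 8.19 to 7.23 and from 9.31 through 9.78 and 8.37 to 7.81, a slope of −0.173 ± 0.022 against 0.54 (difference −0.71 ± 0.12; limma adjusted p = 0.000562). AT1G72900 rose from 5.10 to 7.64 at 22 °C and fell with −0.096 in long cold. CCS had 0.18 at 22 °C and −0.082 in long cold (limma adjusted p = 0.01). AT2G32020 thus stood higher before cordycepin in both late series (9.64 and 9.31) than at 22 °C (5.12), and the part of the starting level in its fall was not tested. Of the risers, 340 had a negative slope at 22 °C (30.6%, against 59.2% of all genes), with 218 called different, among them NRPA2 (−0.48 and 0.018) and AT3G58560 (−0.24 and 0.032).

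AT3G03550, AT3G28580, AT1G25400, AT1G22030, AT1G20120 and AT5G46910 had slopes of 0.72 to 0.88 at 22 °C and of −0.033 to 0.084 in long cold. AT3G03550 went from 4.94 to 8.49 at 22 °C and kept between 5.06 and 5.84 on the 8 late arrays. Those late values all lie under the table median of log2 5.94, where intensity follows a transcript less closely. Some transcripts dropped within 0.5 h at 22 °C and could not be fitted well by a line there. At 22 °C AT5G20790 went from 10.58 to 5.20 in 0.5 h and was at 5.72 at 4 h, and AT4G10270 from 7.78 to 3.65 and then 4.31, and neither slope difference passed. In long cold both genes fell at each step of both series, with slopes of −0.210 and −0.298 per h. The largest step of AT4G10270 was the first 4 h in both series. PUB23 passed, with −0.59 at 22 °C and a difference of 0.434 (limma adjusted p = 0.0425).

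Early cold, after 6 h and 12 h, was described with the same shared slope on its own 8 arrays, a fit added after seeing the data. It called 659 falling (9.47%) and 423 rising (6.08%). These counts were 383 to 874 and 211 to 496 with 1 array left out (lowest falling without the 12 h series' 12 h array, lowest rising without the 6 h series' 8 h array), 158 and 50 with no replicate block, 0 and 0 with 0 h and 12 h arrays only and 6046 and 24 with anchored slopes. The overlaps that follow rest on them. Both fits called 421 of the fallers, which is 37.6% of the late and 63.9% of the early ones, and 222 of the risers, 20% of the late and 52.5% of the early ones. Of the late fallers, 90.4% had a negative slope after 12 h of cold and 73.9% after 6 h, against 42.5% and 51.6% of all genes. Rank correlations of slopes across genes were 0.554 and 0.642 between the 12 h series and the 24 h and 36 h series, and 0.247 and 0.468 between the 6 h series and those. AT1G69760 and AT5G20790 had slopes of −0.048 and −0.024 after 6 h of cold and of −0.297 and −0.319 after 12 h, beside −0.245 and −0.210 in late cold. In the direct comparison 1 gene had a higher slope in late than in early cold (0.0144%) and 0 a lower one (0%) by limma, with 305 and 401 at an unadjusted p under 0.05. That gene was AT5G27950, with −0.063 and −0.073 after 6 h and 12 h and 0.017 and 0.011 after 24 h and 36 h (difference 0.081 ± 0.012; limma adjusted p = 0.0404). It lost the call without any 1 of 7 of the late arrays, the exception being the 24 h series' 8 h array. Against the 12 h series alone, 48 genes were higher and 56 lower in late cold.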

How the data were processed

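RNA of 20 T87 culture samples was read on 20 arrays. Per the submitters' processing notes the authors used RMA in affy (version and probe annotation not given in the sources used here), and the deposited values are intensity on a linear scale, of which log2 was taken here. RMA is meant to make arrays alike in distribution, so slopes are relative to the other transcripts. Of 22810 probe sets 13513 (59.2%) had 1 gene, 503 several and 8794 none in the platform table. Of the 13513, 13436 probe sets matched a locus of TAIR10.1. Of 13356 genes, 6962 were tested: those with the brightest probe set at or above the table median (61.39) on at least 2 of the 20 arrays. Array medians were 60 to 67 in late cold and were not level over the courses. From 0 to 12 h of cordycepin they went from 65.3 to 60 after 24 h of cold and from 67 to 61.6 after 36 h. At 22 °C they went from 64.4 to 50.3 over 4 h. The part of this drift in the slopes and in their differences was not tested. Array number, not read depth, limits precision, and each time point has 1 array per series.

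limma 3.58.1 (R 4.3.3; lmFit, eBayes with trend, Benjamini-Hochberg over 6962 genes, threshold 0.05) fitted the shared slope (8 arrays), its differences from the 22 °C slope (12) and the early cold slope (16), the 36 h minus 24 h slope (8) and 4 h intervals (8). The 24 h and 36 h series are not true replicates. Values for 6962 genes were simulated, with 100 genes for each slope size and the rest given no slope. The shared-slope fit called 90%, 99% and 100% of slopes of 0.05, 0.1 and 0.2, with 12 false calls among genes given no slope. Noise was drawn independently for each gene and array, and both series had the same slopes. The simulation therefore cannot show the false calls that a displaced array or unlike series would give. Python 3.11.15, pandas 2.3.3, numpy 2.4.6 and matplotlib 3.10.9 were used for tables and plots. The members and lists were chosen with earlier results of these data known: 35 lists were fixed as text patterns or loci, and 25 were added by symbol after results had been seen. The added ones replaced 11 fixed lists, whose patterns matched clone names or were superseded; the results of both are given. The genes named were the 15 largest called slopes each way, 8 each way against 22 °C, 5 each way for the smaller contrasts and up to 3 per list. Alternatives covered the zero point, filters, probe sets, array weights, time points, the series block and leaving out each array. Of 145 named genes called for the shared slope, 71 lost the call without the 0 h arrays. With 0 h and 12 h arrays only 62 lost it, and with all 20 arrays in 1 fit also 62. Leaving out 1 array cost from 1 call (24 h series' 8 h array) to 42 calls (24 h series' 12 h array).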

Additional observations from a re-analysis of the deposited data

Results flagged for a closer look

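The slope in late cold differed from that at 22 °C by limma in 1365 genes on the more negative and 2386 on the more positive side. The largest more negative differences, in log2 per h, were those of AT3G03550 (−0.896), AT3G28580 (−0.809), AT1G25400 (−0.723), AT1G72900 (−0.722), AT2G32020 (−0.710), AT1G22030 (−0.703), AT1G20120 (−0.687) and AT5G46910 (−0.679). AT3G03550 lay under the table median on every late array. On the other side stood AT5G16250 (1.13), AT3G42725 (1.05), AT2G42110 (1.001), AT3G02640 (0.992), AT3G53650 (0.971), AT4G02800 (0.931), AT2G04460 (0.929) and AT2G43140 (0.928). With hours rescaled to equal slope spread, 10 of these 16 genes lost their call and 6 kept it. Late and early cold differed in 1 gene, AT5G27950 (0.0814), and the 36 h and 24 h series in 2, AT5G42830 (0.161) and AT4G22530 (0.156). Groups of 1 array per time were too small for a search for single outlying arrays.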

How the results depend on the processing

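The counts of genes that fell and rose with the shared slope (1121 and 1110) were 568 and 256 with 0 h and 12 h arrays only, 459 and 417 with all 20 arrays in 1 fit, 1999 and 2199 with all probe sets, 5194 and 41 with anchored slopes, 1744 and 2339 with array weights, 507 and 99 without the 0 h arrays, and 218 and 28 at 2-fold or more. Without the series as a replicate block they were 740 and 663. The 60th percentile filter gave 622 falling, reference-gene centring 309 rising, and leaving out 1 array 642 to 1201 falling and 384 to 1218 rising. Against 22 °C, the more negative and more positive counts were 2570 and 4352 with all probe sets, 72 and 5509 with anchored slopes, 234 and 1049 with array weights, 252 and 661 with scaled slopes, 2939 and 2491 with no filter, and 886 were more negative without the 0 h arrays. Late minus early cold gave 56 lower and 48 higher against the 12 h series alone, 8 and 2 with all 20 arrays, 11 and 305 with anchored slopes, 3 lower each with all probe sets, array weights and reference-gene centring, and 0 higher with the 60th percentile filter, no filter or no 0 h arrays; leaving out 1 array gave 0 to 1 higher. The 36 h minus 24 h slope gave 114 lower and 207 higher with array weights, 0 higher with all 20 arrays, all probe sets, reference-gene centring or no 0 h arrays, 1 with no trend or the 60th percentile filter, 4 with no filter, and 0 to 1 lower and 0 to 16 higher with 1 array left out. From 0 to 4 h, 0 fell with all probe sets, no trend or no replicate block, and 0 to 1 fell and 0 to 1 rose with 1 array left out. From 4 to 8 h the falling count was 46 with all probe sets, 15 with array weights, 13 with no trend, 16 with the 60th percentile filter, 52 with no filter, 39 with reference-gene centring, 0 with no replicate block and 0 to 53 with 1 array left out; 2, 11, 0 and 0 to 7 rose with the 60th percentile filter, no filter, no replicate block and 1 array left out. From 8 to 12 h 0 to 1 fell with 1 array left out. With anchored slopes 11 of the 145 named genes called for the shared slope turned from rising to falling past the test: ccb382 (−0.0159), SDH1-1 (−0.0192), NRPB6A (−0.0196), LIL3:2 (−0.0178), TUB6 (−0.0176), AT4G26410 (−0.0170), NRPA2 (−0.0193), UBC28 (−0.0207), Hop2 (−0.0142), AT1G54460 (−0.0140) and COS1 (−0.0189). Other risers turned negative without passing, such as the 1 lipid gene (0.0319 to −0.0054). The cause of these shifts was not tested. Single arrays, 2 series standing in for replicates and a relative scale limit all counts, and values under the table median follow a transcript less closely.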
